A study of Mus musculus with 60 samples.

Results

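Lymphomas of Eµ-myc mice were divided by their level of Cdkn2a, and the 15 Cdkn2a-high lymphomas were compared with the 35 Cdkn2a-low lymphomas. The class came from 1 value: the intensity of the probe set that names Cdkn2a alone with the highest mean over the 60 arrays, at 500 or more for high and below 500 for low. These 50 lymphomas are all the tumours of a series of 60 Affymetrix Mouse430_2 arrays, with 1 array per tumour or tissue. The 25 early-onset lymphomas arose at 32 to 76 days of age and the 25 late-onset lymphomas at 253 to 649 days, all in Em-myc transgenic mice, in which Myc is driven by the immunoglobulin heavy chain enhancer. The other 10 arrays are normal lymphoid tissue (lymph nodes and a spleen) of Wildtype mice sampled at 38 to 438 days, and they entered only as a background level. Of the Cdkn2a-high lymphomas 5 were early and 10 late, and of the Cdkn2a-low lymphomas 20 were early and 15 late, so onset group was a covariate in the comparison. The labels give a genotype and an age and no treatment, sex or p53 status.

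Cdkn2a encodes 2 unrelated proteins from alternative first exons. Ink4a blocks the kinases Cdk4 and Cdk6 and thereby holds the Rb protein active, and Arf binds Mdm2, the ubiquitin ligase that degrades p53, so that p53 accumulates. Myc is known to induce Arf, and p53 in turn is known to repress it, which is why high Cdkn2a RNA is commonly taken as a mark of tumours that have lost p53 function. In the Eµ-myc model, mutation of p53 and deletion of Cdkn2a are known as alternative events. Cdkn1a, which encodes the Cdk inhibitor p21, and Mdm2 are classical genes switched on by p53.

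The promoters of the genes that define the comparison are shown because they carry, or lack, the letters that E2F and p53 are known to bind. Each window holds the 250 bases before the first base of a RefSeq transcript (GRCm38.p6), written 5′ to 3′ on the transcribed strand, with motif matches in capitals. Both start sites of Cdkn2a are given, since the single probe set for Cdkn2a does not separate Arf from Ink4a transcripts. The first Cdkn2a window lies before the upstream exon, which begins the Arf transcript, at chr4:89294620-89294869 on the minus strand, and its capitals mark the E2F motif TTTCCCGC.
Cdkn2a, upstream start: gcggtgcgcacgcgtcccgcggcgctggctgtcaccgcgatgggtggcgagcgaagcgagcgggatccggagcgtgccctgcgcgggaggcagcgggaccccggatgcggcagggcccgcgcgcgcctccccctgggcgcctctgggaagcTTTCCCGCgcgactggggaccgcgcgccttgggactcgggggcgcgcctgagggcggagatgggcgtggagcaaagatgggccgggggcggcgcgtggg
The second lies before the downstream exon, which begins the Ink4a transcript, at chr4:89282193-89282442 on the minus strand, and held no match to the 3 motifs searched.
Cdkn2a, downstream start: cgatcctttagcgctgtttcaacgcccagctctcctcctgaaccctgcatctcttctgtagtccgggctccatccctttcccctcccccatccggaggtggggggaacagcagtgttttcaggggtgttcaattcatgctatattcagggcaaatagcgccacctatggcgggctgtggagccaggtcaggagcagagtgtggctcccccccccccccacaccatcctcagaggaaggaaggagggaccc
The first of the 2 Cdkn1a windows, at chr17:29090729-29090978 on the plus strand, holds the p53 core CATGNNNNNNCATG (N is any base), whose first base lies 48 bases before the start. The window before the other Cdkn1a start, at chr17:29093519-29093768 on the plus strand, and that of Mdm2, at chr10:117710759-117711008 on the minus strand, held no match to the 3 motifs and are not printed.
Cdkn1a, first window: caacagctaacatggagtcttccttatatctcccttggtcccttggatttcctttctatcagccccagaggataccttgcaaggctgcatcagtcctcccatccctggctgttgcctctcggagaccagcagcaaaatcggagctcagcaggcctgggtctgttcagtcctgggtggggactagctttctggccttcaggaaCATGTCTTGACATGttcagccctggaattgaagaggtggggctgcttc
Slc43a1, the gene with the smallest adjusted p among those that fell, is shown at chr2:84840073-84840322 on the plus strand, with the E-box CACGTG, the core that Myc is known to bind, in capitals.
Slc43a1: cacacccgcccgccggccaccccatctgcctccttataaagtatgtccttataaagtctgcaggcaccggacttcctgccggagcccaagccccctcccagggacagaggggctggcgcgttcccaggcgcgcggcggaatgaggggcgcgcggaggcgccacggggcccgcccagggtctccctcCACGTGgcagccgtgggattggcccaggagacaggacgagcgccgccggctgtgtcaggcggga
Over both strands, TTTCCCGC was found in 0.895% of 32851 such windows, CATGNNNNNNCATG in 0.49% and CACGTG in 6.02%. Of the genes called in the comparison and matched to a window, 0 of 30 higher and 0 of 27 lower ones held the E2F motif or the p53 core. Among the 10175 tested genes with a window 1.92% held the E2F motif and 0.354% the p53 core. At those shares, 0 in sets of 30 and 27 genes is unremarkable. Of 44 known p53 targets with a window 1, Cdkn1a, held the p53 core. These windows therefore cannot show whether p53 acts on a gene. CACGTG stood in 4 of the 30 and 5 of the 27, against 9.58% of the 10175 tested genes with a window.

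Cdkn2a itself is a description without a test, because it chose the classes. Its intensity was 1570 ± 630.1 (mean ± SD, n = 15) in the high class, 163.5 ± 88.4 in the low class (n = 35) and 126 ± 37.5 in normal tissue (n = 10). In the early high lymphomas it was 1217, 1225, 1604, 1817 and 2315, and in the late high lymphomas it ranged from 552 through a median of 1364 to 2532. Low lymphomas lay between 54.4 and 376, with a median of 139, which is within the 50.6 to 186 of normal tissue. The value just inside the threshold was 552, in late lymphoma 117, and the value just outside was 376, in late lymphoma 124. All 15 high lymphomas and 9 of the 35 low lymphomas lay above the highest normal tissue, so the low class still spans a range of levels. The ratio of the class medians was 10.9.

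**Figure D1:**
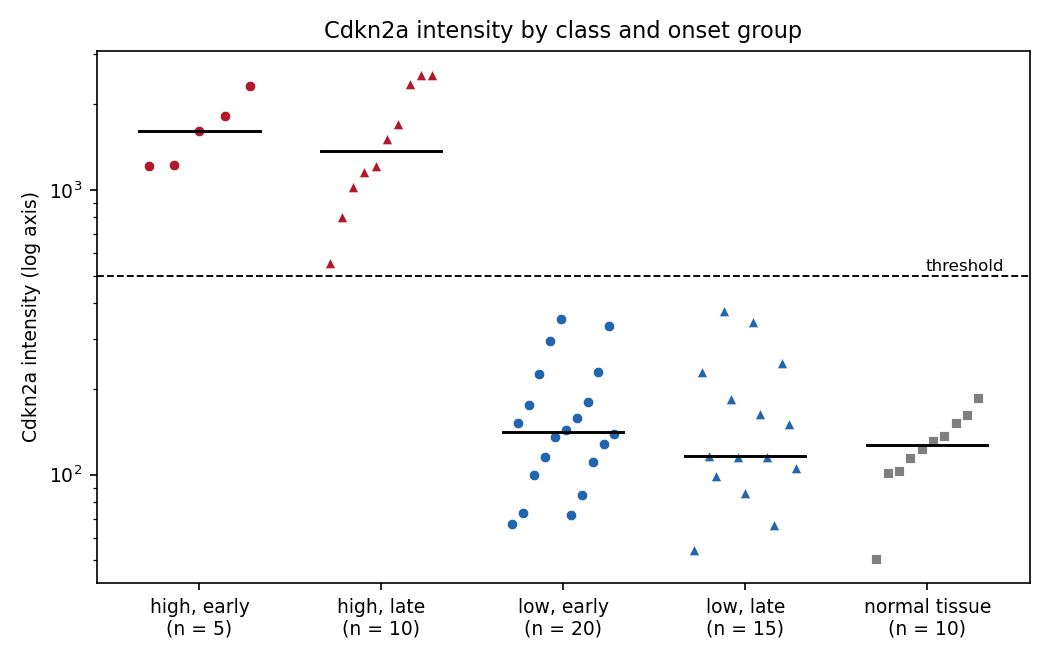
Cdkn2a intensity (log axis) of each lymphoma and normal tissue by class and onset group, with black bars at the medians and a dashed line at the threshold of 500. The 15 high lymphomas lie between 552 and 2532, the 35 low lymphomas between 54.4 and 376, and the 10 normal tissues between 50.6 and 186.

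Some libraries stand apart and bear on the results. Late lymphomas 121 and 123, both Cdkn2a-high, were the most alike of 1225 pairs of lymphomas: the correlation of their deviations from the gene means was 0.736, where the next closest partner of 121 reached 0.216 and that of 123 reached 0.254. The labels do not say whether they share a mouse, so calls are given with both and with the pair averaged as 1 sample. Other late pairs came near that value, all Cdkn2a-low, and were not averaged. The correlation was 0.685 for 129 and 137 and 0.671 for 131 and 133. Early lymphoma 6, Cdkn2a-high, held Cd79a, a signalling chain of the B cell receptor, at 113, where the other 24 early lymphomas lay at 10865 or more. Its Pax5 (152) and Ebf1 (181), transcription factors of B cell identity, were the lowest of the early group too, and its Myc stayed at tumour level (12196). Among late lymphomas 10 were set apart for their plasma cell or B lineage levels, 117 and 125 of the high class and 8 of the low class. This set was chosen after the data were seen and follows no single cut-off. Late lymphoma 136, with a B lineage level of 9.88, was not in it, while 127, at 10.02, was. No difference in RNA measures was detected: the adjusted permutation p was 0.44 for the 3-prime to 5-prime ratios of Gapdh and of beta-actin and for the array median, and 0.50 for the 10th percentile. The Y-linked gene Eif2s3y was at its low level in 4 of 5 early and 5 of 10 late high lymphomas, against 13 of 20 early and 2 of 15 late low lymphomas.

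Few genes separated the classes. Of 27093 probe sets tested 120 passed (limma, Benjamini-Hochberg adjusted p below 0.05; 0.443%), 69 higher and 51 lower in Cdkn2a-high lymphomas. Centring each array on its median left 39, of which 31 were higher and 8 lower. Taking 1 probe set per gene, 68 of 12618 genes were called (0.539%), 34 higher (0.269%) and 34 lower (0.269%). Without adjustment 848 genes were higher and 968 lower at p below 0.05 (6.72% and 7.67%). The called changes were modest, with a median size of 0.48 on the log2 scale, and 8 of the 68 genes changed by more than 2-fold. With lymphomas 121 and 123 as 1 sample, 41 probe sets were called (0.151%), all among the 120, and 28 of the 68 genes (0.222% of genes), 12 higher and 16 lower. The count also rested on other single tumours: without late lymphoma 125 it was 381, and without 117 or 128 it was 192. It fell to 55 without early lymphoma 23, to 60 without late 114, to 63 without late 135 and to 43 without 121 or 123. Without early lymphoma 6 it was 112, of which 79 were among the 120. Without the 10 late lymphomas that stand apart it was 469, of which 92 were among the 120.

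Mdm2 and Cdkn1a did not separate the classes. Mdm2, which is both an inhibitor of p53 and its target, ranged from 1011.5 through a median of 1821 to 2842.5 in the high class and from 638.5 through 1730.5 to 3924 in the low class. Normal tissue lay between 1404.5 and 2989, so both classes overlapped each other and normal tissue. The log2 change of Mdm2, adjusted for onset, was 0.02 ± 0.15 (standard error; adjusted p = 0.97), and its 2 probe sets had opposite signs. Cdkn1a ranged from 169 through 422.5 to 2532 in the high class and from 216 through 435.5 to 5729 in the low class. Its log2 change was -0.20 ± 0.29 (adjusted p = 0.81), and both of its probe sets were negative. The highest Mdm2, Cdkn1a and Ccng1 of the high class all belonged to late lymphoma 125, at 2842.5, 2532 and 4836. The highest of the low class all belonged to late lymphoma 120, at 3924, 5729 and 9300. Late lymphoma 120 had Cdkn2a at 345, near the upper end of the low class, and both tumours are among the 10 whose plasma cell or B lineage levels stand apart.

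Ccng1, which encodes cyclin G1 and is a direct p53 target that feeds back on Mdm2, had the smallest adjusted p among negative changes in 3 lists of p53 targets. It ranged from 1104 through a median of 1908 to 4836 in the high class and from 1962 through 2616 to 9300 in the low class, with normal tissue at 2269 to 3111. In 9 of the 15 high lymphomas Ccng1 lay below every low lymphoma, while early lymphoma 28 (3324) and late lymphomas 128 (3810) and 125 (4836) lay above the low median. The log2 change was -0.53 ± 0.15 (unadjusted p = 0.000965, adjusted p = 0.087), so Ccng1 was not called, and its 3 probe sets had the same sign. It was called without early lymphoma 28 (adjusted p = 0.045), late 125 (0.024) or late 128 (0.044), and with a Cdkn2a threshold of 1000 (0.023). With lymphomas 121 and 123 as 1 sample the adjusted p was 0.16, and over the 22 alternatives it ran from 0.023 to 0.88.

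**Figure D2:**
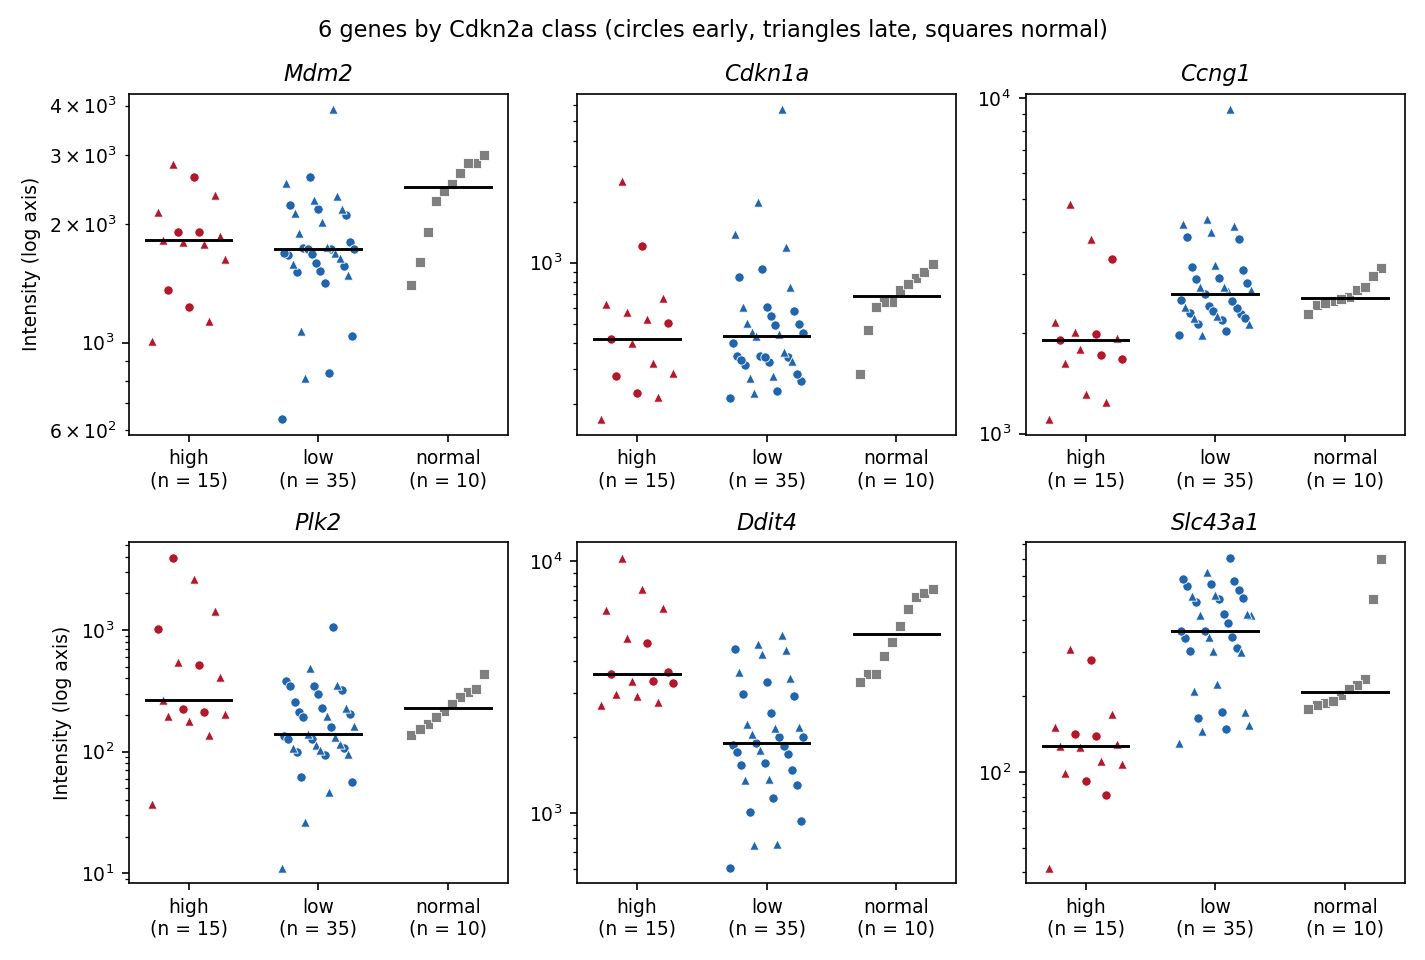
Intensity (log axis) of Mdm2, Cdkn1a, Ccng1, Plk2, Ddit4 and Slc43a1 in the 15 high lymphomas, 35 low lymphomas and 10 normal tissues, with circles for early and triangles for late lymphomas and black bars at the medians. Mdm2 and Cdkn1a overlap throughout, 9 high lymphomas lie below every low lymphoma for Ccng1 and 9 for Slc43a1, and 4 lie above every low lymphoma for Ddit4.

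Genes that p53 is known to induce were described as 3 lists, by role in cell-cycle arrest, in cell death, and in feedback or repair. Over the 3 lists together 52 genes were tested and 2 were called, both higher in Cdkn2a-high lymphomas, beside 0.539% of all genes. The median log2 change of the 52 genes was -0.03, beside -0.02 over all genes. Of the 52 changes 20 were positive and 32 negative (38.5% positive, against 44.8% of all genes). At an unadjusted p below 0.05, 6 were higher and 5 lower, beside 6.72% and 7.67% of all genes.

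Plk2 and Ddit4 were the p53 list genes that rose. Plk2, a polo-like kinase that acts on centriole duplication and is a known p53 target, ranged from 37.3 through a median of 265.6 to 3941.5 in the high class and from 11.1 through 139.5 to 1050 in the low class. It exceeded every low lymphoma in early lymphoma 6 and late lymphomas 113 (2636) and 135 (1432), and lay above the low median in 13 of 15. Plk2 rose by 1.47 ± 0.37 on the log2 scale (adjusted p = 0.049). That call lay at the threshold: it held in 11 of the 50 fits that left out 1 lymphoma and under 8 of 22 alternatives. The adjusted p was 0.091 without early lymphoma 6 and 0.067 with 121 and 123 as 1 sample. Ddit4, an inhibitor of mTORC1 signalling that is induced by stress, hypoxia and p53, ranged from 2682 through 3552 to 10336 in the high class and from 608.5 through 1896 to 5075 in the low class. All 15 high lymphomas lay above the low median and 4 lay above every low lymphoma, the late lymphomas 113, 116, 125 and 135. Ddit4 rose by 1.01 ± 0.22 (adjusted p = 0.024, and 0.026 with the pair as 1 sample). Normal tissue, at 3311 to 7781, was in the range of the high class. The call held under 20 of the 22 alternatives and in each of the 50 fits that left out 1 lymphoma, the exceptions being the fits within early or within late lymphomas.

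The other genes of the 3 p53 lists did not pass. Among arrest genes (14 tested, 1 higher, 0 lower, median 0.01), Sesn1, which restrains mTORC1, was at 0.50 ± 0.22 (adjusted p = 0.29), Sesn2 at 0.14 ± 0.24 and Zmat3, an RNA-binding p53 target, at 0.09 ± 0.33. Among death genes (16 tested, 0 called, median -0.04), Bbc3, which encodes the BH3 protein Puma, was at -0.41 ± 0.21 (adjusted p = 0.38). Pmaip1, which encodes Noxa, was at -0.32 ± 0.23, Perp at -0.34 ± 0.37, Trp53inp1 at -0.26 ± 0.29 and Phlda3, an inhibitor of Akt, at -0.23 ± 0.18. Casp1, the inflammatory caspase, was at 0.75 ± 0.33 (adjusted p = 0.29) and was above the low median in 14 of 15 high lymphomas. Among feedback and repair genes (23 tested, 1 higher, 0 lower, median -0.05), Dglucy was at -0.93 ± 0.33 and Dcxr, a sugar reductase, at -0.42 ± 0.15 (adjusted p = 0.17 for both). Tigar, which lowers glycolytic flux, was at 0.34 ± 0.15 and Ephx1, an epoxide hydrolase, at 0.42 ± 0.20. The signs were mixed inside each list. Eda2r was below the expression filter, and Bax and Trp53 were not analysed here. Sesn1, Casp1, Dglucy, Dcxr, Tigar and Ephx1 were chosen after their values were seen.

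**Figure D3:**
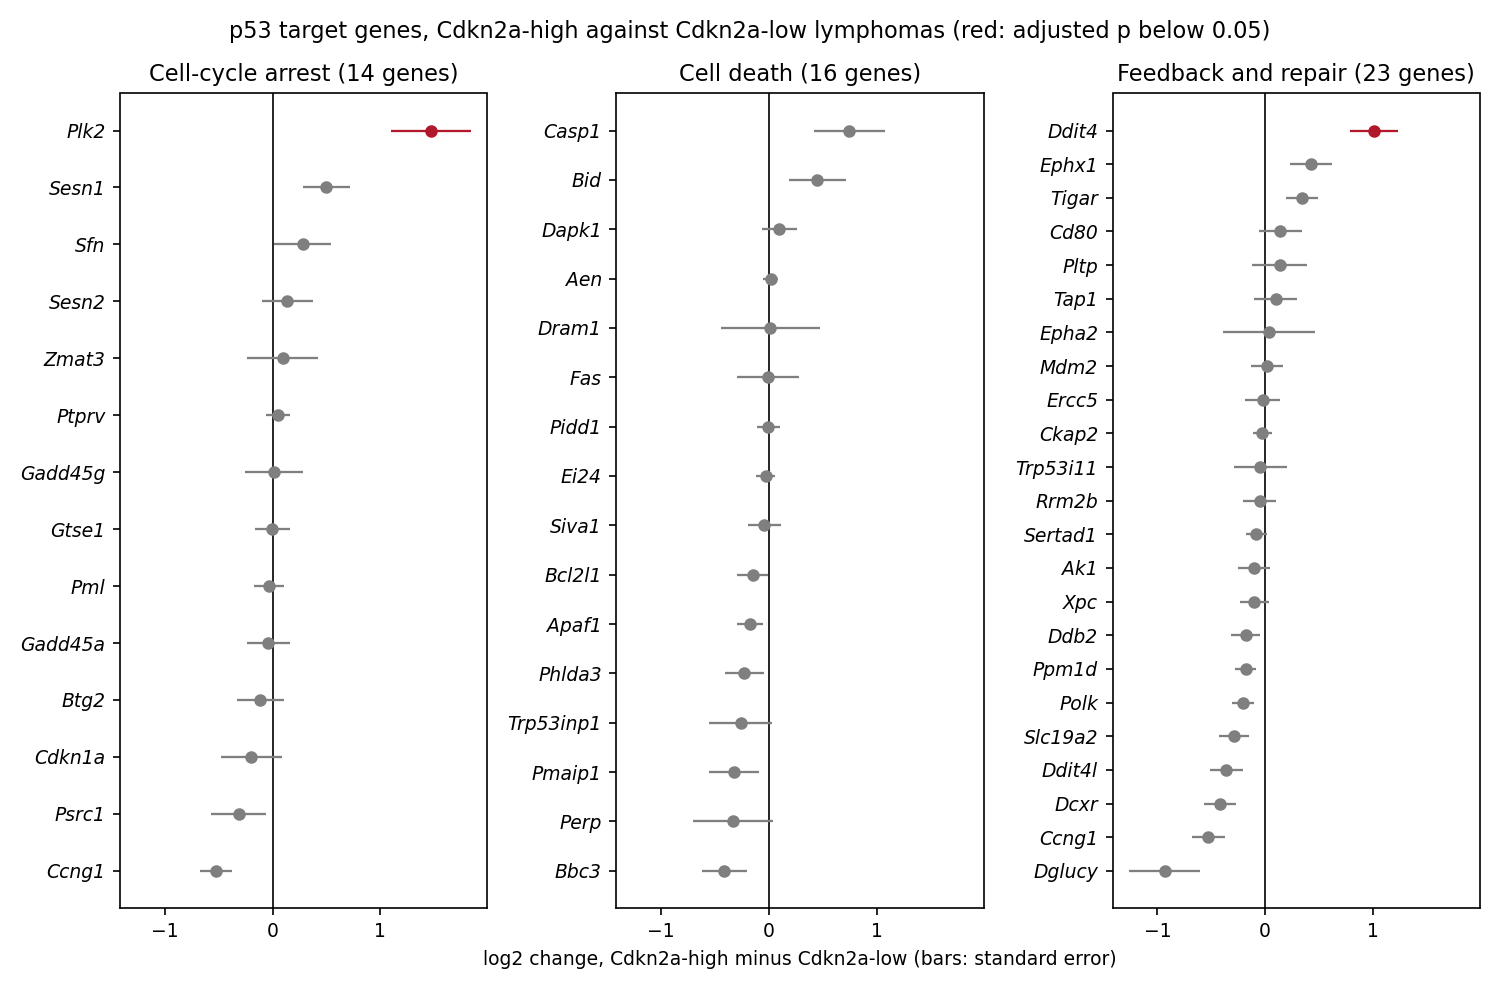
Log2 change between Cdkn2a-high and Cdkn2a-low lymphomas, adjusted for onset, for the tested genes of 3 lists of p53 targets, with bars of 1 standard error and called genes in red. Of 52 genes only Plk2 (1.47) and Ddit4 (1.01) were called, and most of the others lie within 0.5 of 0; Ccng1 appears in 2 of the lists.

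The genes that control p53 and those on the Ink4a side of the locus did not pass either. Of 17 tested regulators of p53, 0 were called, with a median of -0.06. At an unadjusted p below 0.05, 3 of the 17 were lower and 0 higher, beside 7.67% and 6.72% of all genes. Mdm4, the partner of Mdm2 that masks p53, was at -0.31 ± 0.14 (adjusted p = 0.31), with 3 of 3 probe sets of the same sign. Its dimmer probe sets were at -0.44 ± 0.12 (adjusted p = 0.063) and -0.13 ± 0.16 (adjusted p = 0.77). The ubiquitin ligase Cop1 was at -0.18 ± 0.09 and the checkpoint kinase Atr at -0.21 ± 0.09 (adjusted p = 0.35 and 0.29). Of 23 tested genes of the INK4, cyclin D, Cdk and Rb group 0 were called, with a median of -0.02. Cdk6, a target of Ink4a, was at 0.59 ± 0.28 (adjusted p = 0.33) and E2f5, an E2F factor held by the pocket proteins, at -1.07 ± 0.35 (adjusted p = 0.13), though the other 2 probe sets of E2f5 had the opposite sign, at 0.15 and 0.10. Cdk4 (-0.02 ± 0.10), Rb1 (-0.22 ± 0.16) and E2f1 (-0.24 ± 0.12) had smaller changes. Of 16 Polycomb and related repressors of the locus 0 were called (median -0.07). Ring1 was at -0.33 ± 0.12 (adjusted p = 0.17) and Pcgf2 at -0.56 ± 0.23 (adjusted p = 0.25), both subunits of Polycomb repressive complexes. Cop1, Atr and the 5 named genes of the INK4 group were chosen after their values were seen.

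Neighbours of Cdkn2a on chromosome 4 were read as levels. Cdkn2b, which lies beside Cdkn2a and encodes the Cdk inhibitor Ink4b, was below the expression filter and was not tested. Its intensity ranged from 16.5 through a median of 120 to 588 in the high class, from 8.29 through 29.6 to 161 in the low class and from 38.6 to 267 in normal tissue. The highest value was in early lymphoma 6, and 4 high lymphomas exceeded every low lymphoma. Mtap, a purine salvage enzyme whose gene is on the other side of the locus, ranged from 1284 through 2256 to 4151 in the high class and from 90.9 through 1955 to 3355 in the low class. Its log2 change of 0.53 ± 0.22 was not called (unadjusted p = 0.0181, adjusted p = 0.25). Late lymphoma 126 held the lowest Mtap, at 90.9, where the next lowest lymphoma was at 787. Its Cdkn2a, at 86.5, lay within the 50.6 to 186 of normal tissue, and its Cdkn2b was at 10.4. Other low lymphomas had lower values with more Mtap. Cdkn2a was at 54.4 in late lymphoma 133 (Mtap 1758), and Cdkn2b at 8.29 in late lymphoma 130 (Mtap 3355). DNA was not measured.

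Beside Plk2 and Ddit4, 10 other genes complete the 12 largest called rises in Cdkn2a-high lymphomas. Tspan3, a tetraspanin membrane protein, had the smallest adjusted p among genes that rose. It ranged from 1945 through a median of 2375 to 4856 in the high class and from 871 through 1588.5 to 2578 in the low class, and all 15 high lymphomas lay above the low median. Tspan3 rose by 0.66 ± 0.10 (adjusted p = 0.00052, and 0.001 with the pair as 1 sample) and was called in all 50 fits that left out 1 lymphoma. Normal tissue was higher than both medians, at 3058 to 4675. Ankrd37, an ankyrin repeat protein known to be induced by hypoxia, ranged from 408 through 1296 to 3098 in the high class and from 174 through 548 to 1781 in the low class. It rose by 1.16 ± 0.23 (adjusted p = 0.011), and 14 of 15 high lymphomas lay above the low median. Dnajb4, an Hsp40 co-chaperone, rose by 1.07 ± 0.20 (adjusted p = 0.007), led by early lymphoma 23 (1958) and late lymphoma 114 (1166), against a low median of 241. Ak4, a mitochondrial adenylate kinase, rose by 0.75 ± 0.18 (adjusted p = 0.043), though 1 of its 3 probe sets had the opposite sign. Chst10, a sulfotransferase, rose by 0.69 ± 0.17, Adap1, a regulator of Arf-type GTPases that are unrelated to the Arf product of Cdkn2a, by 0.66 ± 0.15 and Ppp3ca, the catalytic subunit of calcineurin, by 0.60 ± 0.13. Lrrc40 (0.61 ± 0.12), the mitochondrial phosphatase Pgam5 (0.55 ± 0.11) and Fam216a (0.55 ± 0.11) also rose. With 121 and 123 as 1 sample, 8 of these 12 remained called, and Plk2, Ak4, Chst10 and Adap1 did not.

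Slc43a1 had the smallest adjusted p among the 12 largest called falls. Slc43a1, a transporter of large neutral amino acids, ranged from 41.8 through a median of 127 to 306.5 in the high class and from 130 through 363 to 708 in the low class, with normal tissue at 178 to 700.3. In 9 of 15 high lymphomas Slc43a1 lay below every low lymphoma and in all 15 below the low median. It fell by 1.24 ± 0.20 (adjusted p = 0.00052, and 0.00084 with the pair as 1 sample), in all 50 fits that left out 1 lymphoma. Prodh, the proline dehydrogenase that starts proline breakdown and is a known p53-induced gene outside the 3 lists, ranged from 155 through 300.2 to 676 in the high class and from 224 through 666 to 1340.5 in the low class. It fell by 1.06 ± 0.19 (adjusted p = 0.0031), and 14 of 15 high lymphomas lay below the low median. Its high-class range covered that of normal tissue, 193 to 367. Rpl22l1, a paralogue of the ribosomal protein Rpl22, fell by 0.76 ± 0.14 (adjusted p = 0.0043), with 7 high lymphomas below every low lymphoma. Ptx3, a secreted pentraxin, fell by 1.16 ± 0.25 (adjusted p = 0.024), and Pigbos1, a mitochondrial microprotein, by 0.65 ± 0.11 (adjusted p = 0.0011). D930003E18Rik, an uncharacterised transcript, fell by 1.30 ± 0.29, Txlnb, a taxilin, by 0.73 ± 0.18 and Spice1, a centriole and spindle protein, by 0.62 ± 0.15. Plekhg3, Ocel1, Tmem191c and Tmem179b fell by 0.51 to 0.57. With the pair as 1 sample, Slc43a1, Ptx3, Prodh, Rpl22l1, Pigbos1 and Tmem179b remained called of these 12. Without early lymphoma 6, 7 of the 24 largest changes were no longer called, those of Plk2, Ak4, Chst10, Txlnb, Plekhg3, Ocel1 and Tmem191c, with adjusted p of 0.051 to 0.091. Over the 50 fits that left out 1 lymphoma, Tmem191c was called in 12, Ak4 and Chst10 in 32 each, Ocel1 in 35, Txlnb in 39, Plekhg3 in 42, Spice1 in 44, Adap1 in 47 and D930003E18Rik in 48.

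The 24 changes had the same sign in early and in late lymphomas taken alone. They were chosen on the fit of both groups together, which favours the same sign, so this is a description and not a test. In the early fit (5 high, 20 low) 12 probe sets were called (0.0443%), 2 higher and 10 lower, of which 3 were among the 120. In the late fit (10 high, 15 low) limma called 0, with 2515 at an unadjusted p below 0.05. The test of the difference of the contrast between late and early lymphomas called 0 of 27093 probe sets, with 2203 at an unadjusted p below 0.05. For Slc43a1 the change was -1.41 in early and -1.13 in late lymphomas, for Ddit4 1.06 and 0.98, and for Tspan3 0.66 in each.

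**Figure D4:**
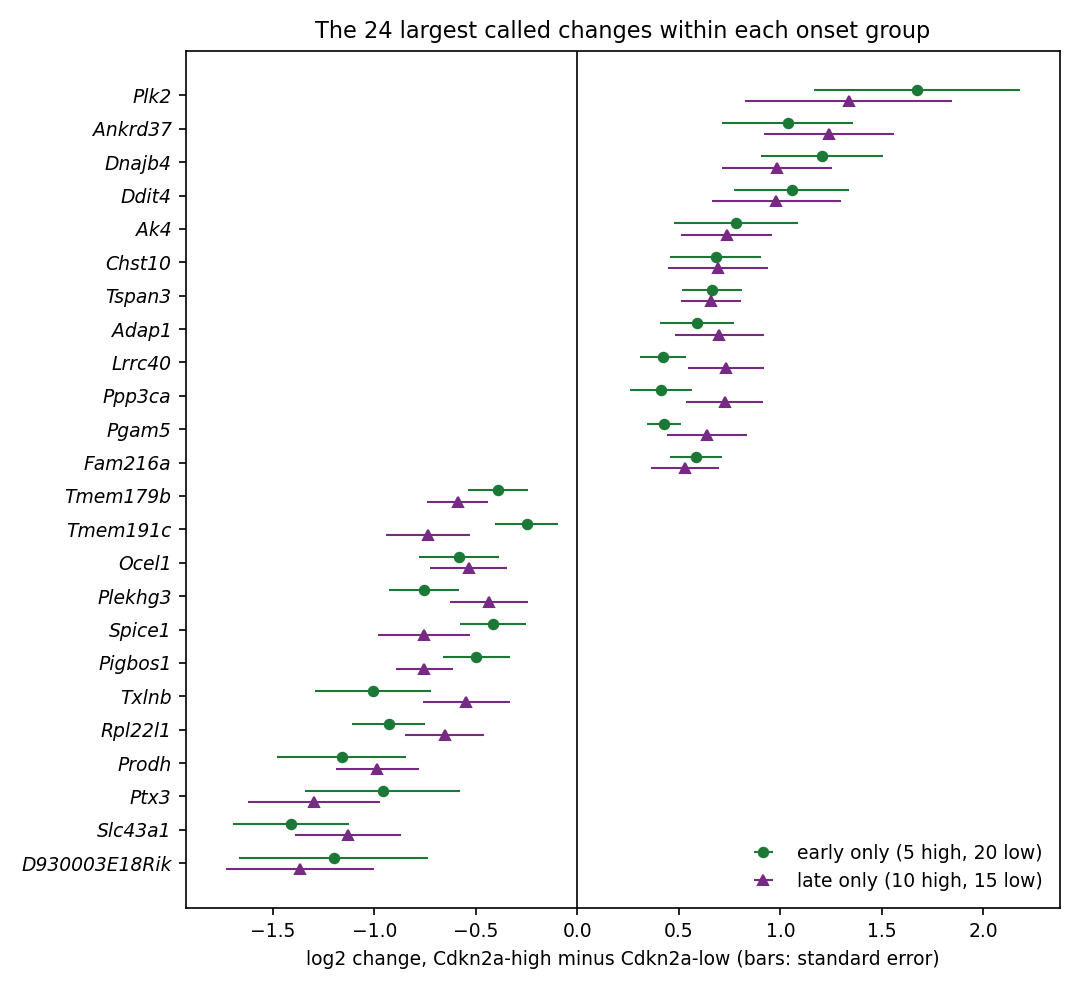
Log2 change between Cdkn2a-high and Cdkn2a-low lymphomas for the 12 largest called rises and 12 largest called falls, fitted within early lymphomas (circles) and within late lymphomas (triangles), with bars of 1 standard error. Each gene has the same sign in both onset groups, although the genes were chosen on the fit of both groups together.

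Myc and proliferation genes did not separate the classes. Myc ranged from 9417 through a median of 12196 to 17514 in the high class and from 4964 through 12483 to 19707 in the low class, against 880 to 1606 in normal tissue. Its log2 change was 0.05 ± 0.11 (adjusted p = 0.88). Of 21 mitotic genes 20 had a positive change, against 44.8% of all genes. Their median was 0.15 beside -0.02 over all genes, and 0 were called. Cenpe, a kinetochore motor, was at 0.32 ± 0.14 and the phosphatase Cdc25c at 0.27 ± 0.12 (adjusted p = 0.31 for both). In late lymphomas the mean log2 level of the 21 genes was 11.03 ± 0.24 (SD, n = 10) in the high class and 10.75 ± 0.70 in the low class (n = 15), and in early lymphomas 11.35 ± 0.17 and 11.37 ± 0.14. Among 20 tested E2F and DNA replication genes 10 changes were positive and 10 negative, and 0 were called. Of 13 genes of the Bcl2 family 0 were called by the probe set with the highest mean. Mcl1, a survival protein, was at 0.30 ± 0.08 (adjusted p = 0.078), and 4 of its 6 probe sets were called, all higher. Its intensity lay above the low median of 8083 in 14 of 15 high lymphomas. Bcl2 was at -0.05 ± 0.36 (adjusted p = 0.97), and Bad, a BH3 protein, at -0.39 ± 0.14 (adjusted p = 0.20).

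Lists for other cells and pathways had 0 called genes each. Over all genes 44.8% of the changes were positive. Among 12 NF-kB targets 11 changes were positive (median 0.32), with Cd40, the costimulatory receptor of B cells, at 0.85 ± 0.28 (adjusted p = 0.14) and the NF-kB subunit Relb at 0.64 ± 0.23 (adjusted p = 0.18). All 8 tested MHC class II genes were positive (median 0.36), with Ciita, their master activator, at 0.57 ± 0.25 (adjusted p = 0.29), and 10 of 11 mature B cell genes were positive (median 0.19). The mean log2 level of the 11 mature B cell genes was 9.56 ± 0.59 (SD) in late high and 8.92 ± 0.75 in late low lymphomas. In early lymphomas it was lower in the high class, at 8.98 ± 0.95 against 9.22 ± 0.31. In the list of pro-B and pre-B genes 7 of 9 were negative (median -0.35), with the factor Sox4 at -0.85 ± 0.42 (adjusted p = 0.35; 6 of 7 probe sets negative) and the surrogate light chain Igll1 at -0.55 ± 0.42. All 7 neutrophil genes were negative (median -0.94), with the calcium-binding protein S100a9 at -1.62 ± 0.65 (adjusted p = 0.24) and the granule protein Ltf at -1.01 ± 0.41. The mean log2 level of the 7 neutrophil genes was 7.64 ± 1.5 (SD) in late high and 9.14 ± 2.19 in late low lymphomas, with the highest value, 14.78, in late lymphoma 136. Of 14 plasma cell genes 12 were negative (median -0.22, Xbp1 at -0.52 ± 0.28), and of 12 interferon genes 10 were negative (median -0.20). The T cell (13 genes, median -0.10), NK (9, median -0.01), macrophage (15, median -0.04) and stroma lists (14, median -0.21) were also uncalled. These are bulk tissue samples, in which fewer cells of a type and less RNA per cell cannot be told apart, and the part of other cell types in the called genes was not tested beyond the fit with plasma cell and B lineage levels as covariates, which called 295 probe sets, among them all 120.

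Chromosome 3 held the most called rises. Of the 34 called rises 12 lay on chromosome 3 and 5 on chromosome 5, and of the 34 called falls 6 lay on chromosome 16. With lymphomas 121 and 123 as 1 sample, 4 of the 12 and 2 of the 5 rises and 2 of the 6 falls remained called. On chromosome 3 the 612 tested genes had a median log2 change of 0.10, with 66.3% positive, and 2.29% were called. On chromosome 5 0.624% of 801 genes were called and on chromosome 16 1.41% of 425, beside 0.539% of all genes. The share on chromosome 5 was thus near that of all genes. The level of a chromosome in a lymphoma was taken as the median, over its genes, of the log2 deviation from the mean of all lymphomas. Each lymphoma's own median deviation was taken off first. A raised or lowered level is thus relative to the other genes of the same lymphoma. Chromosome 3 had a level above 0.15 in 6 of 15 high lymphomas, early 23 and late 113, 114, 117, 121 and 123, and in 3 of 35 low lymphomas, early 11 and 21 and late 127. Dnajb4, Lrrc40, Ppp3ca and Mcl1 lie on chromosome 3. With each gene set against the level of its own chromosome, Dnajb4 (0.95, adjusted p = 0.014) and Lrrc40 (0.49, adjusted p = 0.016) remained called, and Ppp3ca (0.48, adjusted p = 0.054) and Mcl1 (adjusted p = 0.35) were not. Of the 24 largest changes 23 had a chromosome and entered that fit, and 18 remained called. Among them were Slc43a1, Tspan3, Ddit4 and Prodh, with adjusted p of 0.00034, 0.00032, 0.021 and 0.0059. Besides Ppp3ca, the changes that were no longer called were those of Adap1 and Ak4 (adjusted p = 0.054 for both), Spice1 (0.057) and Tmem191c (0.097).

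Relative to the mean of all lymphomas, chromosome levels varied more within Cdkn2a-high lymphomas. The SD over the 19 autosomes of a lymphoma was 0.0995 ± 0.0363 (mean ± SD, n = 15) in the high class and 0.0649 ± 0.0296 in the low class (n = 35), with ranges of 0.04 to 0.155 and 0.0299 to 0.142. Adjusted for onset the difference was 0.032 (permutation within onset groups, two-sided p = 0.0028), and it was 0.029 with 121 and 123 as 1 sample (permutation p = 0.0071). Within late lymphomas it was 0.038 (permutation p = 0.012), and within early lymphomas 0.023 (permutation p = 0.14). At least 1 autosome had a level above 0.15 or below -0.15 in 13 of 15 high and 17 of 35 low lymphomas. Raised autosomes were seen in 12 of 15 and 17 of 35, and lowered ones in 6 of 15 and 1 of 35. These counts move with the threshold: lowered autosomes were seen in 12 of 15 and 10 of 35 at 0.1 and in 4 of 15 and 1 of 35 at 0.2, and raised ones in 13 of 15 and 22 of 35 at 0.1 and in 9 of 15 and 15 of 35 at 0.2. The lowered levels were spread over tumours. Chromosome 13 was at -0.42 in early lymphoma 23 and -0.16 in early lymphoma 20, and chromosome 19 at -0.48 in early lymphoma 29. Late lymphoma 135 had chromosomes 9, 12, 13, 16 and 19 at -0.15, -0.28, -0.20, -0.21 and -0.25. Chromosomes 12 and 16 were at -0.16 and -0.22 in late lymphoma 141, and chromosomes 2, 5 and 14 at -0.19, -0.18 and -0.16 in late lymphoma 125. In the low class, late lymphoma 120 had chromosomes 12 and 18 at -0.16 and -0.28. Chromosome 4, which carries Cdkn2a, was raised in 121 (0.26) and 123 (0.28) alone among the high lymphomas. Chromosome 15, which carries Myc, was raised in 2 high lymphomas, late 117 and 128, and in 6 low lymphomas. The mean of all lymphomas rests on 35 low and 15 high ones, so a shift shared by the high class adds more to its SD. How far it did so was not tested. The measure of chromosome levels and its threshold were chosen after the data were seen, and DNA copy number was not measured. The part of chromosome levels in the other calls was tested only by the fit above.

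**Figure D5:**
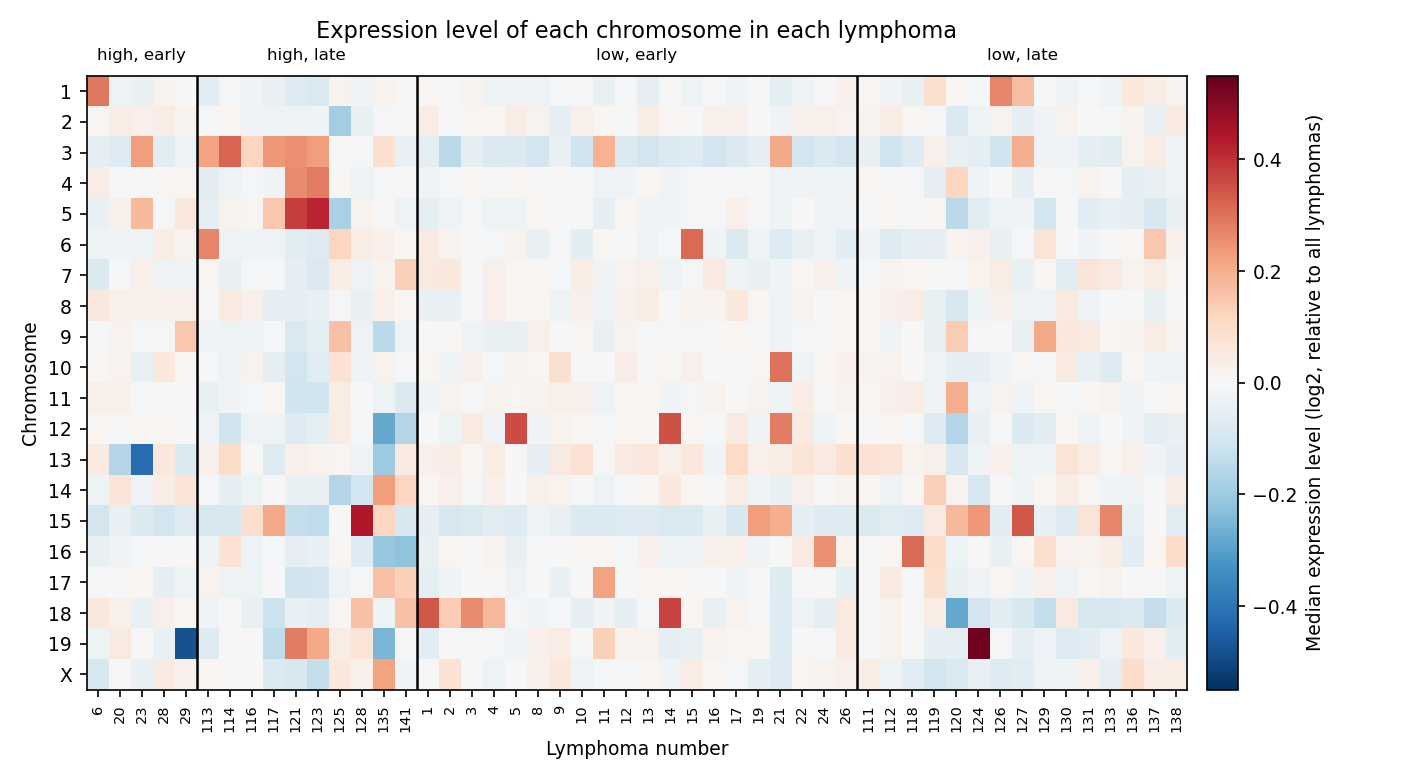
Level of each chromosome in each of the 50 lymphomas, as the median log2 deviation of its genes from the mean of all lymphomas (red above, blue below), with columns grouped by class and onset. Each lymphoma's own median deviation was taken off first. Chromosome 3 is raised in 6 high and 3 low lymphomas, and levels below -0.15 occur on autosomes of 6 high and 1 low lymphomas.

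No difference in the share of Cdkn2a-high lymphomas or in age at onset was detected. The high class held 20% of early and 40% of late lymphomas (two-sided Fisher's exact test, p = 0.22). Within early lymphomas the age was 69.8 ± 7.79 days (SD, n = 5) in the high class and 60.8 ± 11.1 days (n = 20) in the low class, a difference of 9 days (exact permutation test, two-sided, p = 0.10). Within late lymphomas it was 375.3 ± 116.5 days (n = 10) and 402.3 ± 93.4 days (n = 15), a difference of -27 days (permutation test, p = 0.54). High lymphomas arose at 57 to 76 days in the early group, where low lymphomas arose at 32 to 75 days, and at 262 to 649 days in the late group, where low lymphomas arose at 253 to 569 days.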

How the data were processed

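Total RNA of snap-frozen tissue was labelled as biotinylated cRNA from 6 µg per sample and hybridised to Affymetrix Mouse430_2 arrays, per the labels' protocols. The authors deposited linear intensities, for which the submitters' processing notes name MAS5 without a version. The table shows each array scaled to a mean of 500.00 after trimming 2% at each end. Of 45101 probe sets 64 controls were left out, and 27094 lay above their array's median on at least 10 of 60 arrays. Gene names follow the platform annotation, updated through RefSeq (GRCm38.p6). Where several probe sets named a gene alone, the one of highest mean over the 60 arrays stood for it.

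Tests used log2(intensity + 15.7), which understates changes of dim genes, in limma 3.58.1 (R 4.3.3; lmFit, eBayes with a trend), two-sided, class and onset group as terms, Benjamini-Hochberg threshold 0.05. The Cdkn2a probe set was left out. Ages, RNA measures and chromosome spread were compared by permutation over lymphomas (up to 100000 resamples). limma was tested on simulated data. The labels do not state which arrays share a mouse or batch, so p-values rest on the spread among the samples, which may be partly technical, and the number of arrays limits the precision.

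The classes, members and 34 gene lists (486 entries, 415 tested) were chosen with earlier results of these data known. Named genes are Cdkn2a, Cdkn2b, Mdm2, Mdm4, Cdkn1a, Ccng1, Zmat3, Phlda3, Eda2r, Trp53inp1, Bax, Bbc3, Pmaip1, Perp, Sesn2, Myc and Bcl2, called members of the p53 and INK4 lists, the 12 largest called rises and falls whose higher class mean exceeded the table median of 157, and up to 4 members of each other list with the smallest adjusted p. Others are stated as chosen after their values were seen. Python 3.11.15, numpy 2.4.6, pandas 2.3.3, scipy 1.17.1 and matplotlib 3.10.9 made the tables and plots.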

Additional observations from a re-analysis of the deposited data

Results flagged for a closer look

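Dixon's test at the 95% level was applied to 26 sets of values, each 1 gene in the early or in the late Cdkn2a-high lymphomas, and chance alone marks about 5% of such sets. It marked 3. Cdkn1a in late lymphoma 125 was 2532, where the next highest of the 10 late high lymphomas was at 673. Ccng1 in early lymphoma 28 was 3324, where the next highest of the 5 early high lymphomas was at 1984. Ddit4 in early lymphoma 6 was 4739, where the next highest of the same 5 was at 3630.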

How the results depend on the processing

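The count of 120 called probe sets moved by over 1.5 times under 13 alternatives and kept within that under the others. It was 50 with no filter on low values, 39 with arrays centred on their median, 15 and 582 at Cdkn2a thresholds of 250 and 1000, and 275 for the slope on log2 Cdkn2a. Of these, 47 of the 50, 37 of the 39, 7 of the 15, 106 of the 582 and 87 of the 275 were among the 120. The count was 12 within early and 0 within late lymphomas, 295 with plasma cell and B lineage levels as covariates, and 285 with array weights. Among alternatives chosen after seeing the data, it was 469 without the 10 late lymphomas that stand apart, 79 with each gene relative to its chromosome, 41 with lymphomas 121 and 123 as 1 sample and 32 with both left out. Leaving out each lymphoma gave 43 to 381. The spread of chromosome levels kept its direction throughout, from 0.029 to 0.036 with 1 lymphoma left out, and was 0.023 within early lymphomas (permutation p = 0.14). The age difference in early lymphomas turned to -3.09 days at a threshold of 250 (exact permutation p = 0.53).

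Some genes that were not called changed sign under some alternatives. Bcl2 was at 0.012 and 0.086 at thresholds of 250 and 1000, 0.073 without the onset covariate, 0.278 within early lymphomas, 0.055, 0.097 and 0.041 with RNA ratios, array median or lineage levels as covariates, 0.127 with array weights, 0.304 without the 10, 0.01 with the pair as 1 sample and 0.082 without it. Cdkn1a was at 0.198 (threshold 250), 0.005 (slope) and 0.13 (early). Mdm2 was at -0.002 (quantile normalization), -0.033 (threshold 1000), -0.061 (late) and -0.036 (Y-linked class). Myc was at -0.019 (threshold 250), -0.005 (slope), -0.001 (array weights) and -0.019 (without the pair). Perp was at 0.409 (early), 0.17 (array weights) and 0.139 (without the 10), Phlda3 at 0.062 (threshold 250), Pmaip1 at 0.099 (early) and Sesn2 at -0.15 (late). Zmat3 was at -0.065 (threshold 1000), -0.101 (early), -0.063 (Y-linked class) and -0.029 (relative to chromosome). Cd22, Cd72 and H2-Ob, at 0.53, 0.33 and 0.75 over all lymphomas, were at -0.45, -0.125 and -0.031 within early lymphomas. With 1 lymphoma left out the ranges were -0.215 to 0.093 for Bcl2, -0.042 to 0.074 for Mdm2, -0.003 to 0.082 for Myc, -0.009 to 0.238 for Sesn2 and -0.053 to 0.171 for Zmat3. The cause was not tested for any of these.

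No paired analysis was possible because early and late lymphomas share no replicate numbers and no label pairs lymphomas of the 2 classes. The alternative of another Cdkn2a probe set was not run, as 1 probe set names it. The precision is limited by 15 high lymphomas, 5 of them early.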

Other observations

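Among all probe sets tested, the smallest adjusted p belonged to a second probe set of Prelid3a, a lipid transfer protein of the mitochondrial intermembrane space, which was chosen after its value was seen. That probe set had a mean intensity of 237 in Cdkn2a-high and 76.6 in Cdkn2a-low lymphomas and rose by 1.35 ± 0.18 on the log2 scale (limma, adjusted p = 2.39e-05). The brighter probe set of Prelid3a, at 358 and 312, had a log2 change of 0.21 ± 0.11 (adjusted p = 0.40), so the gene's probe sets disagree.

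Of the 4 sex-linked genes tested limma called 0, and 2, both lower in Cdkn2a-high lymphomas, were at an unadjusted p below 0.05. Over all genes 7.67% were lower at that cut-off. Eif2s3y, a Y-linked translation factor subunit, had a log2 change of -1.57 ± 0.76 (adjusted p = 0.35), and Uty, a Y-linked demethylase homologue, of -1.23 ± 0.45 (adjusted p = 0.18). With the Y-linked class as a covariate 86 probe sets were called, of which 79 were among the 120.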
